A study of Mus musculus with 4 samples.

Results

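Heat shock proteins and chaperones are represented here by 10 genes of 45232 gene rows. They were taken by symbol from a named list, drawn up by known function: Hspa1a, Hspa1b, Hsph1, Dnajb1, Hsp90aa1 and Hsp90ab1 of the cytosol, Hspa5 of the endoplasmic reticulum (ER), Hspd1 and Hspe1 of mitochondria, and the transcription factor Hsf1. All 10 had a gene row and all 10 passed the filter on low counts, which kept 15320 genes. The list was selected on function and on CPM values of these same libraries, miR-99 KD against Scr, so the members' differences between groups are given as a description.

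RNA was measured in mouse LSK cells, which lack lineage markers, carry Kit and Sca-1 on their surface and include blood stem cells and their earliest progeny. The miR-99 KD group comprised GFP-positive LSK cells descended from transplanted long-term stem cells with a knockdown of the microRNA miR-99. The Scr group comprised GFP-positive LSK cells descended from transplanted stem cells with a scrambled control. Each group had 2 libraries from 2 mice, sorted 3 months after transplantation. In both groups the cells had been handled, marked with GFP and transplanted, and the sources used here do not give the strain or age of donors and recipients. The libraries do not read the mature microRNA itself.

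Heat shock proteins are chaperones that bind unfolded proteins and help them to fold. Hsp70 proteins bind and release stretches of chain with the help of Hsp40 partners, which deliver clients, and Hsp110 proteins, which exchange the nucleotide. Hsp90 proteins act later, on kinases, receptors and other near-folded clients. Hsf1 is held inactive by chaperones and, when unfolded proteins accumulate, binds heat shock elements in the promoters of cytosolic and mitochondrial chaperone genes. Chaperones of the ER are induced by a separate pathway, the unfolded protein response, through Ire1, Perk and Atf6. Blood stem cells are known for slow protein synthesis and for sensitivity to misfolded protein.

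Promoter sequences are shown because the cytosolic and mitochondrial genes and the ER gene are known to answer to different elements, and because 2 pairs of members share promoter sequence. Of the 10 members, 7 had an entry in the RefSeq promoter table, on build GRCm38.p6, with 250 bases before and 50 after each start. Capitals mark a heat shock element core, GAANNTTC or TTCNNGAA, or the ER stress element, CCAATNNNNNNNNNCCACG. Each was searched on both strands, the ER stress element also as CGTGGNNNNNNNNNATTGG, and the cores may overlap each other. Each stretch is written 5′ to 3′ on the strand of its gene and ends before the start of transcription.
Hspa1a (minus strand, chr17:34972212-34972281): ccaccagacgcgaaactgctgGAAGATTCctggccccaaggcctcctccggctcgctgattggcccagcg
Hsph1 (minus strand, chr5:149636342-149636401): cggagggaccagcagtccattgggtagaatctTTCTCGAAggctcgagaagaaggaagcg
Hspe1 (plus strand, chr1:55088038-55088107): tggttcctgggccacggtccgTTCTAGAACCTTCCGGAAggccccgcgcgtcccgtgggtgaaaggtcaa
Hspa5 (plus strand, chr2:34772005-34772064): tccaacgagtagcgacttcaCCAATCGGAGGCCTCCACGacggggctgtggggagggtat

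A heat shock element core was found in the windows of 5 members, Hspa1a, Hspa1b, Hsph1, Hspd1 and Hspe1. Of all 32851 promoters in the table, 15.1% held such a core, so the core alone is common. The longer form with 3 units, GAANNTTCNNGAA or TTCNNGAANNTTC, was found in 3 members, Hsph1, Hspd1 and Hspe1, against 0.603% of all promoters. In Hsph1 it lay after the start of transcription, at bases 36 to 48 in 1 entry and 15 to 27 in the other, outside the printed stretch. Of the 2 entries of Hspd1, 1 held the core and the longer form and the other held neither. In Hspe1 and this Hspd1 entry the matches are the same bases, because the windows of these head-to-head genes share 285 of 300 bases. The Hspa1b stretch at chr17:34959294-34959363 has the same 70 letters as the Hspa1a stretch, and the full windows differ at 4 of 300 bases. The ER stress element was found in Hspa5 alone of the 7, against 0.119% of all promoters. No core was found in the windows of Dnajb1. A match is a description of letters and not evidence of binding.

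Counts per library ran from 27295197 to 32350590. Kit, which the sort selected, had 670 and 774 CPM in miR-99 KD and 1149 and 1280 CPM in Scr, where CPM is the read count scaled to a common library total. Ly6a, the gene of Sca-1, had 12.4 and 22.3 CPM in miR-99 KD and 46.5 and 22.8 CPM in Scr. Markers of other blood cells were present in every library and uneven within groups. All 13 neutrophil markers were highest in miR-99 KD 1, with a summed level of 29520 CPM there and 5281 CPM in miR-99 KD 2, against 8378 and 6220 CPM in the Scr libraries, and none was at 0. In bulk RNA, fewer cells of a type and less RNA per cell cannot be told apart.

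The cytosolic members fell into sets with different patterns. Hsph1, Dnajb1, Hsp90aa1 and Hsp90ab1 had higher levels in each miR-99 KD library than in either Scr library, most of all Hsph1, and in each the highest value was in miR-99 KD 2. Hspa1a and Hspa1b, the stress-inducible Hsp70 genes, did not follow the groups. They were high in miR-99 KD 2 and Scr 2, and low in miR-99 KD 1 and Scr 1. The ER member Hspa5 was higher in both miR-99 KD libraries, with miR-99 KD 1 above miR-99 KD 2. Of the mitochondrial pair, Hspe1 was higher in miR-99 KD and Hspd1 overlapped. Hsf1 was nearly level.

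**Figure D1:**
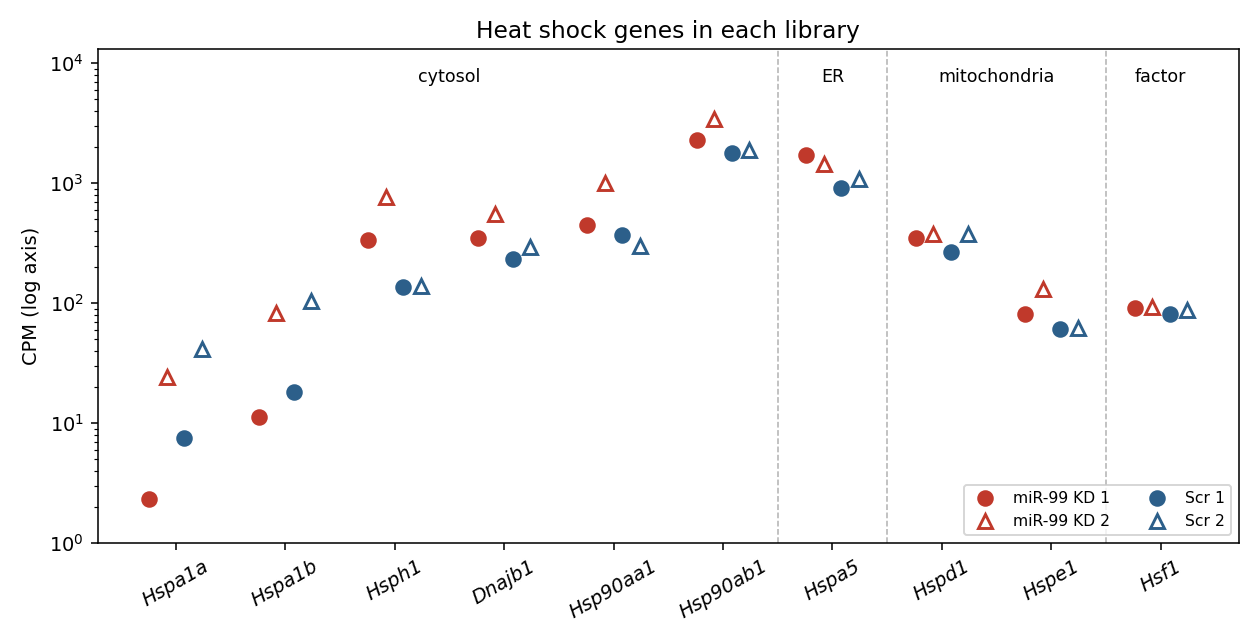
CPM of the 10 heat shock genes on a log axis, 1 point per library, with miR-99 KD in red and Scr in blue, and library 1 as filled circles and library 2 as open triangles. Hspa1a and Hspa1b separate by library within each group, from 2.31 to 24.1 CPM and from 11.2 to 82.0 CPM in miR-99 KD, while Hsph1 is at 337 and 768 CPM in miR-99 KD and at 137 and 138 CPM in Scr.

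Hsph1 (ENSMUSG00000029657), an Hsp110 protein that exchanges nucleotide on Hsp70, had 337 and 768 CPM in miR-99 KD 1 and 2, against 137 and 138 CPM in Scr 1 and 2. The groups were apart, the Scr libraries nearly equal, and miR-99 KD 2 was 2.28 times as high as miR-99 KD 1. The log2 difference was 2.01 ± 0.40 (SE, 2 libraries per group), or 4.02-fold. Without miR-99 KD 2 the log2 difference was 1.30, and without miR-99 KD 1 it was 2.48.

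Hsp90aa1 (ENSMUSG00000021270), the stress-inducible cytosolic Hsp90, had 446 and 999.6 CPM in miR-99 KD, against 369 and 299 CPM in Scr. The lower miR-99 KD library was close to the higher Scr library, so most of the gap came from miR-99 KD 2. The log2 difference was 1.11 ± 0.39 (SE, 2 libraries per group), and 0.42 without miR-99 KD 2. Hsp90ab1 (ENSMUSG00000023944), the constitutive form, had 2293 and 3398 CPM in miR-99 KD, against 1794 and 1906 CPM in Scr. Its groups did not overlap, and its log2 difference was 0.62 ± 0.22 (SE, 2 libraries per group), or 0.31 without miR-99 KD 2.

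Dnajb1 (ENSMUSG00000005483), an Hsp40 that brings clients to Hsp70, had 352 and 555 CPM in miR-99 KD, against 232 and 295 CPM in Scr. The 2 groups were apart, again with the widest spread in miR-99 KD. The log2 difference was 0.78 ± 0.26 (SE, 2 libraries per group), and 0.42 without miR-99 KD 2.

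Hspa1a (ENSMUSG00000091971) had 61 and 639 counts in miR-99 KD 1 and 2, and 252 and 1203 counts in Scr 1 and 2. These are 2.31 and 24.1 CPM in miR-99 KD, against 7.53 and 41.3 CPM in Scr. The library numbers here are those of the sample titles. Within a group the second library was 10.4 times the first in miR-99 KD and 5.48 times the first in Scr. Hspa1b (ENSMUSG00000090877), its near-copy, had 11.2 and 82.0 CPM in miR-99 KD, against 18.2 and 103 CPM in Scr, ratios of 7.31 and 5.66. The groups overlapped in both genes. Between libraries of the same number, both genes were lower in miR-99 KD than in Scr. Their log2 differences were -0.89 ± 1.20 and -0.38 ± 1.11 (SE, 2 libraries per group), smaller than their errors, and with the counts of both genes summed the difference was -0.51 ± 1.13.

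The direction of both genes turned with the library left out. That of Hspa1a was -3.40 without miR-99 KD 2 and 0.78 without Scr 2, and that of Hspa1b was -2.43 and 1.33. On the log2 scale the gap between libraries of 1 group was larger in Hspa1a than in 97.8% of the genes tested in miR-99 KD, and than in 97.9% in Scr. For Hspa1b these shares were 96.5% and 98.1%. The other 8 members had shares of 4.97% to 86.3% in miR-99 KD and of 4.49% to 75.8% in Scr.

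**Figure D2:**
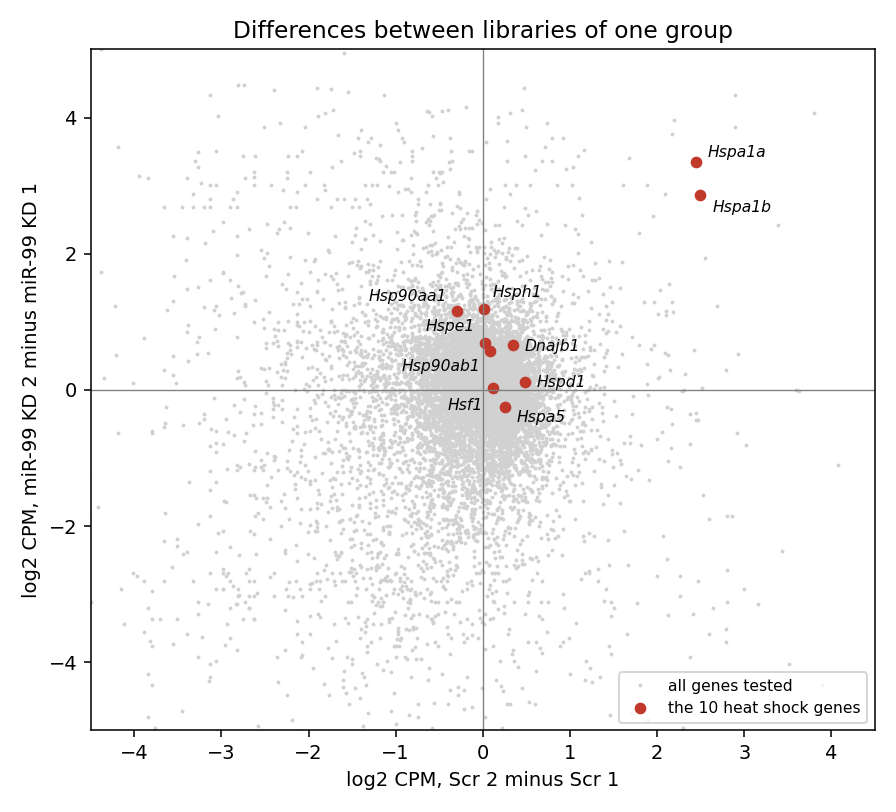
Log2 CPM differences between the 2 libraries of a group, with miR-99 KD on the vertical axis and Scr on the horizontal axis, for all genes tested in grey and the 10 heat shock genes in red; 63 genes lie outside the plotted range. Hspa1a and Hspa1b lie at 3.34 and 2.86 in miR-99 KD and at 2.44 and 2.50 in Scr, while Hsph1 lies at 1.19 on the miR-99 KD axis and 0.02 on the Scr axis.

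Hspa1b took a larger part of the counts of the pair in miR-99 KD. It held 82.9% of the counts of both genes in miR-99 KD 1 (exact Clopper-Pearson 95% interval 78.6% to 86.7%) and 77.3% in miR-99 KD 2 (75.7% to 78.9%). It held 70.7% in Scr 1 (67.6% to 73.8%) and 71.4% in Scr 2 (70.0% to 72.8%). The intervals of the 2 groups did not overlap, and they cover counting error only, since reads copied by PCR are not independent molecules. Of all stretches of 50 bases in the Hspa1a transcript, 58.8% also occur in Hspa1b, and 62.3% of those in Hspa1b occur in Hspa1a. HTSeq sets aside reads that fit several places, so both levels rest on the part of each transcript that differs and are too low by an unknown amount.

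Hspa8 (ENSMUSG00000015656), the constitutive Hsp70 of the cytosol, went with Hsph1 and not with the inducible pair. It had 1136 and 1574 CPM in miR-99 KD, against 568 and 674 CPM in Scr. The log2 difference was 1.13 ± 0.21 (SE, 2 libraries per group), with an edgeR adjusted p of 0.199 and a DESeq2 adjusted p of 3.3e-05. Per kb of transcript, Hspa8 was 75.2 and 13.3 times the summed level of Hspa1a and Hspa1b in miR-99 KD 1 and 2, and 19.9 and 4.21 times in Scr 1 and 2. These ratios use full transcript lengths and are not corrected for reads set aside. Of the 50-base stretches of Hspa1a and Hspa1b, 66.3% and 62.3% occur in another gene, and the share in Hspa8 was not measured.

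Hspa5 (ENSMUSG00000026864), also called BiP, the Hsp70 of the ER, had 1705 and 1437 CPM in miR-99 KD, against 907 and 1082 CPM in Scr. The groups were apart and, unlike in the 6 cytosolic members, miR-99 KD 1 was the highest library. The log2 difference was 0.66 ± 0.17 (SE, 2 libraries per group), or 1.58-fold. It ranged from 0.51 to 0.78 over the 4 fits that left out a library.

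Hspd1 (ENSMUSG00000025980) and Hspe1 (ENSMUSG00000073676) encode Hsp60 and Hsp10, the barrel and lid of the mitochondrial chaperonin, and are transcribed from the shared promoter shown above. Hspd1 had 347 and 378 CPM in miR-99 KD, against 267 and 373 CPM in Scr, and Scr 2 was nearly level with miR-99 KD 2. Hspe1 had 80.4 and 130.0 CPM in miR-99 KD, against 60.5 and 61.5 CPM in Scr, and its groups did not overlap. The log2 differences were 0.18 ± 0.20 for Hspd1 and 0.79 ± 0.25 for Hspe1 (SE, 2 libraries per group). Without Scr 1 that of Hspd1 was -0.072, and that of Hspe1 was 0.40 without miR-99 KD 2 and 1.09 when miR-99 KD 1 was left out.

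The pair therefore did not keep a fixed ratio. Per kb of transcript, Hspe1 was 0.583 and 0.866 times Hspd1 in miR-99 KD 1 and 2, and 0.571 and 0.414 times in Scr 1 and 2, so miR-99 KD 1 and Scr 1 were close. Of the 50-base stretches of Hspd1, 42.8% also occur in the pseudogene Hspd1-ps3, which itself had 3706 and 4134 counts in miR-99 KD and 3708 and 4683 counts in Scr. Hspd1 and Hspd1-ps3 together had 487 and 533 CPM in miR-99 KD, against 377 and 534 CPM in Scr. Reads of Hsp90aa1 meet a similar limit, since 51.5% of its 50-base stretches occur in Gm12346. That row had 198 and 419 CPM in miR-99 KD, against 155 and 129 CPM in Scr, the same order of libraries as Hsp90aa1. Hsph1, Hspa5 and Hsf1 shared 0% of theirs with another gene, Dnajb1 shared 0.441%, Hsp90ab1 4.49% and Hspe1 8.2%. A measure added after seeing the data used only the part of each transcript whose 50-base stretches occur in no other gene. By that measure Hspe1 was 0.350 and 0.521 times Hspd1 in miR-99 KD 1 and 2. In Scr 1 and 2 it was 0.343 and 0.249 times Hspd1.

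Hsf1 (ENSMUSG00000022556), the factor that binds heat shock elements, had 90.7 and 92.4 CPM in miR-99 KD, against 81.3 and 88.1 CPM in Scr. The 4 libraries were close, with both miR-99 KD values just above both Scr values. The log2 difference was 0.11 ± 0.13 (SE, 2 libraries per group), less than its error. Hsf1 is mainly regulated as a protein, which RNA counts do not show.

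**Figure D3:**
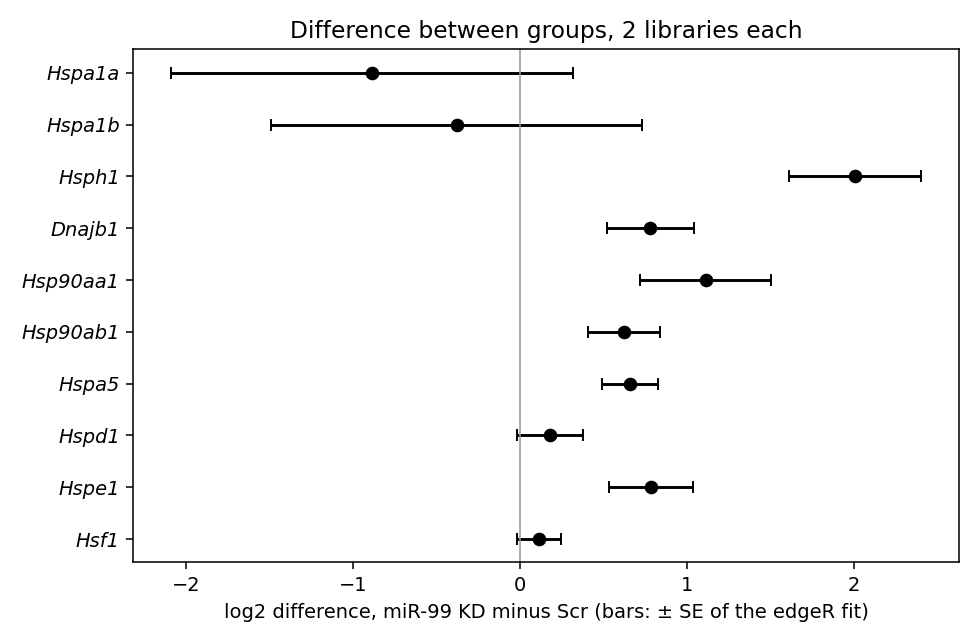
Log2 difference of miR-99 KD minus Scr for the 10 heat shock genes, with bars of ± SE from the edgeR fit on 2 libraries per group. Hsph1 lies farthest from 0 at 2.01 ± 0.40, and Hspa1a and Hspa1b carry the widest errors, 1.20 and 1.11.

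By the quasi-likelihood test of edgeR, adjusted after Benjamini and Hochberg, 0 of the 10 members were called at an adjusted p under 0.05, where 0% of all 15320 genes were. At an unadjusted p under 0.05, 6 members were higher in miR-99 KD and 0 lower. Of all genes, 15.6% passed by that rule, 5.97% higher and 9.63% lower. DESeq2 called 3 members higher, Hsph1, Hsp90aa1 and Hspa5, and 0 lower, where it called 5.79% of all genes, 1.66% higher and 4.13% lower. Each miR-99 KD library exceeded each Scr library in 7 members, 0 lay below and 3 overlapped, where 24.5% of all genes lay above, 26% below and 49.5% overlapped. Nothing is read from these counts, because the members were listed with the same contrast in view. DESeq2 called Hsph1 in each of its 4 fits that left out a library. It called 6 members when miR-99 KD 1 was left out, 2 when miR-99 KD 2 was, and 1 when either Scr library was. Over all genes these fits called 1506 when miR-99 KD 1 was left out, 840 when miR-99 KD 2 was, 131 without Scr 1 and 27 without Scr 2, so the members' count moved with the overall count.

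Set side by side within a library, the 6 cytosolic members made up most of the members' level per length. The 6 cytosolic members summed to 1239 and 2037 CPM per kb in miR-99 KD 1 and 2, against 939 and 1026 CPM per kb in Scr 1 and 2. Hspa5 stood at 464 and 391 CPM per kb in miR-99 KD, against 247 and 295 CPM per kb in Scr. Hspd1 and Hspe1 summed to 227 and 291 CPM per kb in miR-99 KD, against 173 and 218 CPM per kb in Scr. The cytosolic sum stood above Hspa5, and Hspa5 above the mitochondrial sum, in all 4 libraries by this measure. The sums cover 6, 1 and 2 genes, so they rank the listed members and not whole compartments. The step from Hspa5 to the mitochondrial pair depended on the length used. Divided by the part of each transcript whose 50-base stretches occur in no other gene, a measure added after seeing the data, Hspd1 and Hspe1 summed to 350.2 and 429 CPM per kb in miR-99 KD, against 268 and 349 CPM per kb in Scr, while Hspa5, which shares none, kept its level. The mitochondrial pair then stood above Hspa5 in miR-99 KD 2, Scr 1 and Scr 2 and below it in miR-99 KD 1, and the cytosolic sum stayed above both.

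The balance between the members of these compartments differed more between the miR-99 KD libraries than between the groups. The cytosolic sum was 2.67 and 5.20 times Hspa5 in miR-99 KD 1 and 2, and 3.80 and 3.48 times in Scr 1 and 2. The lowest and the highest of these ratios were thus both in miR-99 KD. The cytosolic sum was 5.47 and 7.01 times the mitochondrial sum in miR-99 KD, and 5.44 and 4.71 times in Scr. Hsp90ab1 supplied most of the cytosolic level, and without it that sum was 329 and 689 CPM per kb in miR-99 KD, against 228 and 269 CPM per kb in Scr.

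**Figure D4:**
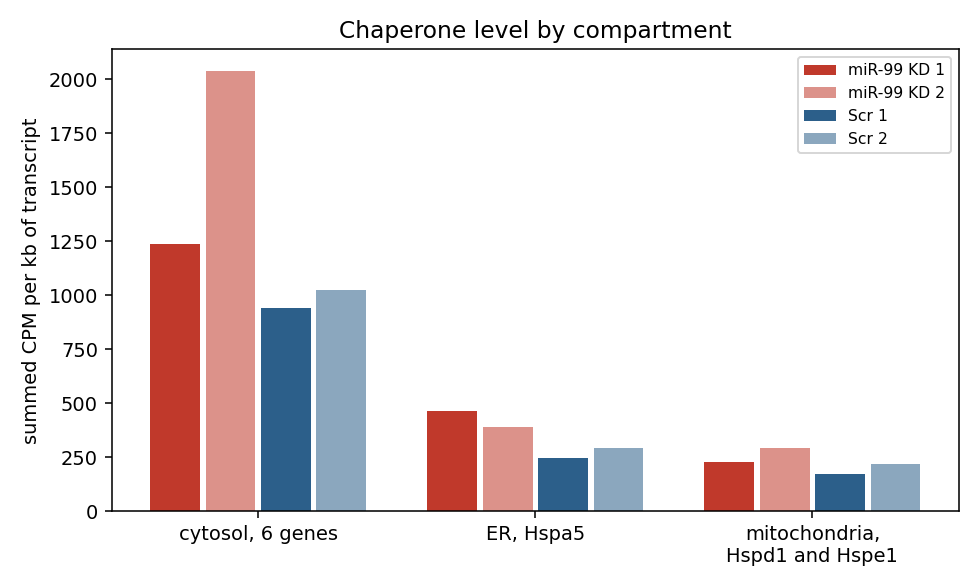
Summed CPM per kb of transcript for the cytosolic, ER and mitochondrial members, 1 bar per library from 0, with miR-99 KD in red and Scr in blue. The cytosolic bar of miR-99 KD 2, at 2037, is the tallest, and for Hspa5 miR-99 KD 1 is taller than miR-99 KD 2.

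The order of single genes by mean CPM per kb was led by Hsp90ab1, with 1129 for miR-99 KD and 734 for Scr, followed by Hspa5 at 428 and 271 in the same order of groups. Hsp90ab1 ranked 12 to 31 among 15257 genes in the 4 libraries, and Hspa5 66 to 156. Below them in miR-99 KD came Hsp90aa1 at 220, Dnajb1 at 151, Hspd1 at 149, Hsph1 at 116 and Hspe1 at 109 CPM per kb, neighbours that overlap in their libraries. In Scr these were Hspd1 at 132, Hsp90aa1 at 102, Dnajb1 at 88.1, Hspe1 at 63.3 and Hsph1 at 28.8 CPM per kb, of which the first 3 overlap in turn while Hspe1 and Hsph1 each lie clear below. Hsph1 ranked 1306 and 393 in miR-99 KD, against 3266 and 3270 in Scr, and Hspa1a ranked 12012 and 7224 in miR-99 KD, against 10261 and 5706 in Scr. Of the 2 Hsp90 genes, Hsp90ab1 was 6.69 and 4.43 times Hsp90aa1 per kb in miR-99 KD, and 6.33 and 8.29 times in Scr. Divided by unshared length in the same way, Hsp90aa1 averaged 531 CPM per kb in miR-99 KD and 245 CPM per kb in Scr, on the mean above Hspa5 in miR-99 KD and below it in Scr, with overlapping libraries in each group. Hsp90ab1 was then 2.91 and 1.92 times Hsp90aa1 in miR-99 KD, and 2.75 and 3.60 times in Scr. Hsp90ab1 led by both measures.

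The wider chaperone network was read from 7 lists of 106 genes in all, of which 92 genes other than the 10 members were tested. The lists were chosen with earlier results of these data known, so the counts below are a description. Each miR-99 KD library exceeded each Scr library in 54 of the 92, 6 lay below and 32 overlapped, which over all genes were 24.5%, 26% and 49.5%. At an unadjusted p under 0.05 edgeR put 20 of the 92 higher and 1 lower, against 5.97% and 9.63% of all genes, and at an adjusted p under 0.05 it called 0. DESeq2 called 10 higher and 1 lower, against 1.66% and 4.13% of all genes. The median log2 difference of the 92 genes was 0.26, against 0.016 over all 15320 genes tested. The count of 20 was 5 without Scr 2 and 6 without Scr 1. It was 15 when miR-99 KD 2 was left out, 36 when miR-99 KD 1 was, and 13 with libraries scaled by total counts alone. In these same fits the genes higher at that p numbered, over all genes, 182 without Scr 2 and 335 without Scr 1, 1203 when miR-99 KD 2 was left out, 1808 when miR-99 KD 1 was, and 503 with total counts, against 915 with all libraries. DESeq2 called 0 of them higher without Scr 1 and 1 without Scr 2. It called 8 when miR-99 KD 2 was left out and 22 when miR-99 KD 1 was. Over all genes it called 52 and 7 higher without Scr 1 and Scr 2, and 338 and 526 when miR-99 KD 2 and miR-99 KD 1 were left out.

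Among the Hsp70 partners and Hsp90 co-chaperones, the genes named here had the smallest edgeR p for miR-99 KD against Scr. Their gap between groups follows in part from that choice, so their values and p-values are a description. The same holds for Hspa8 and for the genes named by this rule from the other lists. Stip1, which hands clients from Hsp70 to Hsp90, had 536 and 659 CPM in miR-99 KD, against 350 and 372 CPM in Scr. Chordc1, an Hsp90 co-chaperone, had 205 and 278 CPM in miR-99 KD, against 123 and 133 CPM in Scr. Dnaja4, an Hsp40, had 20.9 and 17.4 CPM in miR-99 KD, against 8.07 and 9.34 CPM in Scr. DESeq2 called each of these 3, with adjusted p of 0.0016 for Stip1, 9.3e-04 for Chordc1 and 0.0085 for Dnaja4, while their edgeR adjusted p ran from 0.213 to 0.219. Dnaja1, another Hsp40, and Ahsa2, which stimulates Hsp90, had log2 differences of 0.67 ± 0.24 and 0.78 ± 0.25 and were called by neither tool.

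The lists of cytosolic Hsp70, Hsp110 and Hsp40 genes and of Hsp90 co-chaperones had median log2 differences of 0.33 over 17 genes and 0.41 over 13 genes, members included. The first was 0.66 when Scr 2 was left out, 0.57 when miR-99 KD 1 was and 0.22 when miR-99 KD 2 was. The second was 0.59 when miR-99 KD 1 was left out and 0.27 when miR-99 KD 2 was. The exchange factors and small heat shock proteins had a median of 0.26 over 14 genes. Bag2, an exchange factor for Hsp70, had 165 and 221 CPM in miR-99 KD, against 120 and 117 CPM in Scr, and DESeq2 called it at an adjusted p of 0.015. Bag3, an exchange factor induced by Hsf1, had 24.3 and 33.3 CPM in miR-99 KD, against 13.4 and 17.5 CPM in Scr, and was called by neither tool. Hspb1, the small heat shock protein Hsp27, was chosen after its values were seen and was barely detected, at 0.08 and 0.34 CPM in miR-99 KD and 0.03 and 0.45 CPM in Scr.

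The chaperonin TRiC, which folds actin and tubulin, and prefoldin, which feeds it, had a median log2 difference of 0.34 over 14 genes. Each miR-99 KD library exceeded each Scr library in 10 of them and 4 overlapped, where 24.5% of all genes lay above and 49.5% overlapped. Neither edgeR nor DESeq2 called any at an adjusted p under 0.05, where they called 0% and 5.79% of all genes. At an unadjusted edgeR p under 0.05 there was 1, where 15.6% of all genes passed. In 12 of the 14 the highest library was miR-99 KD 2. Cct2, a TRiC subunit, had 332 and 475 CPM in miR-99 KD, against 298 and 265 CPM in Scr. Tcp1, another subunit, had 713 and 943 CPM in miR-99 KD, against 613 and 603 CPM in Scr.

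Over the 24 genes of the ER list the median log2 difference was 0.23, with 15 genes above in miR-99 KD, 2 below and 7 overlapping. Over all genes 24.5% lay above, 26% below and 49.5% overlapped. Hsp90b1, the Hsp90 of the ER, had 825 and 842 CPM in miR-99 KD, against 606 and 551 CPM in Scr. Manf, a secreted cofactor of Hspa5, had 145 and 146 CPM in miR-99 KD, against 99.3 and 80.5 CPM in Scr. Ern1, which encodes the stress sensor Ire1, went the other way, at 15.2 and 12.7 CPM in miR-99 KD, against 25.6 and 30.8 CPM in Scr. DESeq2 called Hsp90b1 at an adjusted p of 0.0058, Manf at 0.0066 and Ern1 at 0.0093. It also called Xbp1, the transcription factor whose RNA Ire1 splices, Herpud1, which acts in ER-associated degradation, and Ddit3, the stress factor Chop, each higher and each chosen after its values were seen. Xbp1 had 267 and 202 CPM in miR-99 KD, against 155 and 146 CPM in Scr. Ddit3 had 26.2 and 26.7 CPM in miR-99 KD, against 16.5 and 14.9 CPM in Scr. In 11 of the 24 genes miR-99 KD 2 was highest and in 9 miR-99 KD 1 was.

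Over the 16 genes of the mitochondrial list the median log2 difference was 0.14. Neither DESeq2 nor edgeR called any of them at an adjusted p under 0.05, where they called 5.79% and 0% of all genes. At an unadjusted edgeR p under 0.05 there were 2, where 15.6% of all genes passed. Hspa9, the Hsp70 of mitochondria, chosen after its values were seen, had 734 and 793 CPM in miR-99 KD, against 711 and 794 CPM in Scr, with a difference on the log2 scale of 0.02 ± 0.14 (SE, 2 libraries per group). Clpp, a matrix protease, had 109 and 117 CPM in miR-99 KD, against 89.2 and 91.1 CPM in Scr. Grpel1, the exchange factor for Hspa9, had a log2 difference of 0.30 ± 0.12, and Yme1l1, an inner membrane protease, had 0.33 ± 0.14. Of the heat shock factors and regulators 4 genes were tested, with a median of 0.05. Hikeshi, which carries Hsp70 into the nucleus, had 70.3 and 81.3 CPM in miR-99 KD, against 58.9 and 57.3 CPM in Scr. Hsf2, a second heat shock factor, was low, at 1.63 and 1.88 CPM in miR-99 KD and 3.44 and 1.20 CPM in Scr. Hsbp1, which binds Hsf1, was level, at 146 and 151 CPM in miR-99 KD and 153 and 147 CPM in Scr.

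**Figure D5:**
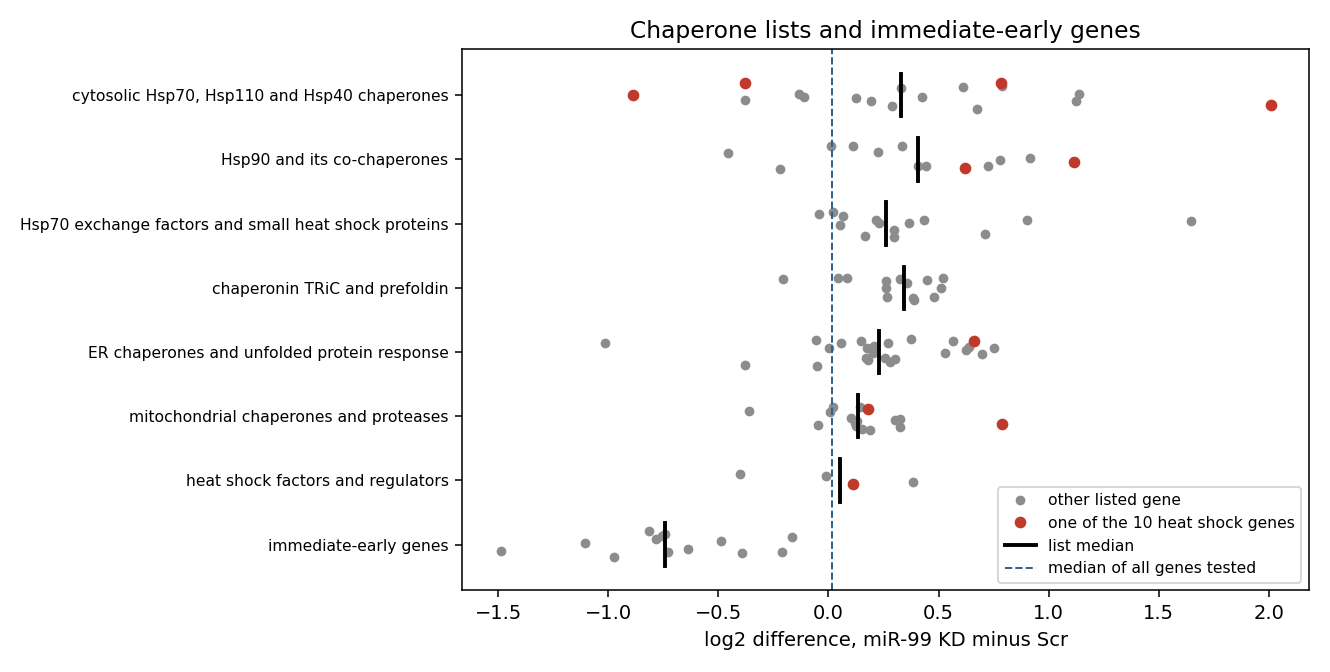
Log2 difference of miR-99 KD minus Scr for the tested genes of the 7 chaperone lists and of the immediate-early genes, 1 point per gene, with the 10 heat shock genes in red, list medians as black bars and the median of all genes tested, 0.016, as a dashed line; points are spread vertically for legibility. The medians of the first 4 lists lie between 0.26 and 0.41, and that of the immediate-early genes at -0.74.

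Immediate-early genes, such as Fos and Egr1, answer stress and growth signals within minutes and were listed because handling of cells can induce them along with heat shock genes. Over 13 such genes the median log2 difference was -0.74, with 11 lower in both miR-99 KD libraries, 0 higher and 2 overlapping. Over all genes 26% lay below, 24.5% above and 49.5% overlapped. The summed level of the 13 genes was 2782 and 3029 CPM in miR-99 KD, against 4760 and 5068 CPM in Scr. Both miR-99 KD sums lay below both Scr sums, while Hsph1 and Hspa8 were higher in both miR-99 KD libraries. The part of handling and of these 13 genes in the chaperone values was not tested.

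Markers of other cell types also differed between the libraries. The 14 erythroid markers summed to 16951 and 16852 CPM in miR-99 KD, against 12149 and 9999 CPM in Scr, with a median log2 difference of 0.53, 9 of 14 higher in miR-99 KD and none at 0. The 10 LSK and stem cell markers summed to 1445 and 1616 CPM in miR-99 KD, against 2859 and 3061 CPM in Scr, with 8 of 10 lower. Of all genes tested, 24.5% were higher in both miR-99 KD libraries, 26% lower, and 49.5% overlapped. The 12 B cell markers summed to 337 and 98.5 CPM in miR-99 KD, against 95.4 and 45.8 CPM in Scr, and the 13 neutrophil markers were given above. The 9 macrophage markers summed to 694 and 492 CPM in miR-99 KD, against 673 and 244 CPM in Scr, and the 7 mast cell and basophil markers to 117 and 118 CPM in miR-99 KD, against 70.0 and 40.3 CPM in Scr, with Prss34 at 0 in the second library of each group and Cma1 at 0 in Scr 2. The mast cell and basophil sum hides a spread between genes. Over the 6 of these markers tested, the median log2 level centred on each gene's mean was 0.10 and 0.87 in miR-99 KD 1 and 2, against -0.37 and -0.93 in Scr 1 and 2. The highest library of that median was thus miR-99 KD 2, as for Hsph1. Gene by gene, miR-99 KD 2 was highest for 4 of these 6 markers and miR-99 KD 1 for the other 2. The neutrophil, B cell and macrophage sums were higher in miR-99 KD 1 than in miR-99 KD 2. Mitochondrial genes took 0.729% and 0.9995% of counts in miR-99 KD, against 0.990% and 0.357% in Scr. The part of these cell types and of RNA quality in the chaperone values was not tested.

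The genes whose level across the 4 libraries was most like that of Hsph1 were sought among 9515 other genes with a mean of at least 10 CPM, by the Euclidean distance between log2 CPM values centred on each gene's mean. The 5 nearest were 1700001L05Rik, Sparcl1, Dynll1, Il1rl1 and Paqr9, at distances of 0.70 to 0.86, and none was a chaperone of the lists. This distance counts the size of a difference as well as its shape. It does not show whether chaperones with smaller differences shared the order of libraries of Hsph1. Il1rl1, a cytokine receptor, had 64.4 and 128 CPM in miR-99 KD, against 41.7 and 45.4 CPM in Scr. For Hspd1 the 5 nearest were Cdk12, Paxbp1, Washc4, Zmym1 and Hspd1-ps3, at distances of 0.026 to 0.065. The last of these shares sequence with Hspd1, so its likeness is not a separate measurement.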

How the data were processed

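The authors deposited unnormalized counts of reads per Ensembl gene, with a file for each library and no pooling of replicates. Per the labels' protocols, sorted cells went into Trizol LS and total RNA was amplified with SMARTer, a PCR method for low RNA input. Per the submitters' processing notes, the tools were STAR, Picard, HTSeq and DESeq2 and the build was mm9, while versions, annotation and strand setting were not given in the sources used here. Reads with several alignments, 18.0% to 21.9% of all, stand apart in the HTSeq files, as do the 8.31% to 13.8% with no feature. These classes and other rows that name no gene did not enter library sizes or tests.

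Symbols (44585 of 45232 rows) and lengths were read from GENCODE M21, and promoters from RefSeq on GRCm38.p6, the build of all printed coordinates. The test was edgeR (version 4.0.16, R 4.3.3), its quasi-likelihood fit over all genes kept by filterByExpr, with TMM scaling, no replicate block and Benjamini-Hochberg adjustment at 0.05. Alternatives were DESeq2 1.42.0, limma-voom 3.58.1, RLE and total-count scaling, 2 other filters, a block and leaving out each library. The tests were tried on simulated counts with the same spread set for every gene and library. That setting differs from these libraries, so the trial does not give the error rates here. CPM used TMM-scaled totals, and CPM per kb divided by the longest annotated transcript. DESeq2 gave no adjusted p for 2377 genes. P-values measure the spread between 2 mice per group.

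The members and lists were chosen with earlier results of these data known. The rule named the 10 members, up to 3 further genes of each list with the smallest edgeR p, and the 5 genes nearest to Hsph1 and to Hspd1. Pseudogene rows were taken for shared sequence, and any other gene is marked in the text. Of the 106 listed genes, Hspa14 is not analysed here, and 3 were too low to test.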

Additional observations from a re-analysis of the deposited data

How the results depend on the processing

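No cause was tested for any change below, and the counts of listed chaperones under each setting were chosen after seeing the data. Where a library was alone in its group, its spread was taken from the other group. EdgeR called 0 genes with all 4 libraries, against 887 by DESeq2, 1064 with no filter on low counts, and 0 to 1013 when each library was left out. At an unadjusted edgeR p under 0.05 there were 2390 genes, and 783 to 4342 when each library was left out. Of these genes 61.7% were lower in miR-99 KD, and 79.1% with libraries scaled by total counts alone. The 887 DESeq2 calls became 27 to 1506 when each library was left out. Libraries that share a number had deviations correlated at 0.0567 over all genes tested, which does not show a pairing of mice. Totals pasted into 3 of the files stand under names with the opposite number to the title, in both groups alike. Among them the total of Scr 1 stands beside that of miR-99 KD 1. A further Scr total in the miR-99 KD 2 file equals that of no library used here. A fit with the replicate block gave 0 calls by edgeR and 390 by DESeq2. In that edgeR fit the log2 difference was -1.21 for Hspa1a (adjusted p 0.215) and -0.51 for Hspa1b (adjusted p 0.381). With no filter on low counts edgeR called 5 members (Dnajb1, Hsp90aa1, Hspa5, Hspe1 and Hsph1), where it called 1064 of 25446 genes. When each library was left out, the log2 difference ran from -3.40 to 0.78 for Hspa1a, from -2.43 to 1.33 for Hspa1b and from -0.072 to 0.43 for Hspd1. The other 7 members were higher in miR-99 KD under all 11 settings. List medians ran likewise from 0.22 to 0.66 for the Hsp70, Hsp110 and Hsp40 list, from 0.27 to 0.59 for Hsp90 and co-chaperones, from 0.15 to 0.31 for exchange factors and small heat shock proteins, from 0.21 to 0.46 for TRiC and prefoldin, from 0.16 to 0.24 for the ER list, from 0.056 to 0.20 for the mitochondrial list and from -0.054 to 0.20 for the heat shock factors. With total counts alone the medians were 0.17 for exchange factors, 0.14 for the ER list, 0.049 for the mitochondrial list and -0.035 for the heat shock factors, which stood at -0.23 with no filter. The exchange factor median was 0.20 with at least 10 CPM in 2 libraries. The counts of the 10 members were 61 or more in every library, and what limited the calls was not tested.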
